A study of Rattus norvegicus with 484 samples.

Results

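The 42 genes described here encode proteins of the sarcomere and their relatives in other cells. They were chosen by symbol: every gene that the array's annotation names Myh, Myl, Tnnc, Tnni, Tnnt, Tpm, Actn, Mybpc, Myom, Myoz or Tmod followed by a digit, with Acta1 and Actc1, out of 10210 named genes. They rest on 65 of 23653 probes, 14 of them on several probes and 28 on 1, and several probes of a gene were averaged. Ttn, Neb, Tnnc1, Mybpc1, Actn2 and Myom1 were not among the named probes and were not analysed here. The rule itself uses symbols and no measured value.

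Muscle contracts when thick filaments of myosin pull on thin filaments of actin, and each fibre builds its filaments from one set of isoforms. Slow fibres use the heavy chain Myh7 with the light chains Myl2 and Myl3, the troponins Tnni1 and Tnnt1, and Tpm3, while fast fibres use Myh1, Myh2 and Myh4 with Myl1, Myl11, Tnnc2, Tnni2 and Tnnt3. The soleus is the textbook slow muscle of the rat, and the quadriceps and the extensor digitorum longus (EDL) are mostly fast. By role the genes fell into 6 slow fibre genes, 12 fast fibre genes (those named, with Myh13, Actn3, Mybpc2 and Myoz1), 6 genes classed here as of both fibre types (Acta1, Myom2, Tpm1, Tpm2, Tmod1 and Tmod4), 8 cardiac or developmental genes (Actc1, Myh3, Myh6, Myh8, Myl7, Tnni3, Tnnt2 and Mybpc3) and 10 genes of smooth muscle and non-muscle cells, such as Myh9, Myl9 and Actn4. The class of both fibre types is a label, and equal use by slow and fast fibres was not checked for each of its genes.

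The study asked whether agonists of PPAR alpha, a nuclear receptor that drives fat oxidation, act differently on muscles of different fibre type. Rats received vehicle or a compound, given in mkd as the labels write the dose, and RNA of 1 rat's muscle was hybridised against pooled RNA of vehicle rats, made for each tissue and day. In soleus the 132 arrays held 35 vehicle rats, 19 on the PPAR alpha agonist fenofibrate at 400 mkd, 20 on bezafibrate at 250 mkd, 18 on Wy-14,643 at 100 mkd, 20 on the PPAR gamma agonist rosiglitazone at 100 mkd and 20 on retinoic acid at 25 mkd, over days 2 to 6. In quadriceps the 151 arrays held 63, 18, 20, 16, 16 and 18 rats in the same order at the same doses and days. In EDL the 54 arrays held lower doses and no single vehicle rat: 9 rats on fenofibrate at 50 mkd, 9 on bezafibrate at 25 mkd, 12 on Wy-14,643 at 10 mkd, 9 on rosiglitazone at 10 mkd, 4 on rosiglitazone at 100 mkd (day 4) and 11 on retinoic acid at 2.5 mkd, over days 3 to 6. Strain, sex and age are not given in the sources used here, and all pools and controls received vehicle. Values are log2 ratios of the single rat to the pool, so that 0 is the pool's level and 1 a doubling. The number of arrays sets the precision. Rat numbers in the labels mark separate animals, many of which gave more than 1 tissue, and a change in the number of fibres or cells of a type and a change in RNA per cell cannot be told apart in such bulk samples.

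A few arrays stood apart from the rest. Checks of every array put 9 in doubt, for a spread over all features above 3 times that of their tissue or for hepatocyte markers over 2 log2 units above the other arrays of the day: soleus of vehicle rats 1022, 1034 and 1061, and quadriceps of vehicle rats 1002, 1042 and 1068, bezafibrate rat 1256, retinoic acid rat 1321 and fenofibrate rat 1157. The quadriceps of vehicle rats 1036 and 1076 stood apart in cardiac genes, and the EDL of bezafibrate rat 1242 in slow and fast fibre genes. The direction of the ratio was inferred from Acot1, a PPAR alpha target, which was higher with the PPAR alpha agonists than with vehicle by 1.63 ± 0.16 (SE) log2 units in soleus (limma, adjusted p = 4.78e-13) and by 1.21 ± 0.16 in quadriceps (adjusted p = 6.89e-08).

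In soleus and quadriceps the contractile genes were often left without a value. In soleus 20.6% of their values were missing against 0.923% over all features, in quadriceps 24.3% against 0.669%, and in EDL none in either. In all 337 muscle arrays together 2684 of 14154 values were missing, or 19%. In the liver arrays of the study 0.275% were missing against 0.817%.

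Which genes lacked values followed the fibre type of the muscle. In soleus 488 of 792 values of the slow fibre genes were missing (61.6%), against 24.4% of the fast fibre genes, 23.1% of the genes of both fibre types, 7.01% of the cardiac and developmental genes and 0.833% of the smooth and non-muscle genes. In quadriceps the order was turned: 1158 of 1812 values of the fast fibre genes were missing (63.9%) and 41.1% of the genes of both types, but 1.21% of the slow fibre genes and none of the other classes. Within the class of both types only Acta1, Myom2 and Tpm1 lacked values there, so its share is not a trait of the whole class. Tnni1, the slow inhibitory troponin, had no value on any of 132 soleus arrays and a value on every quadriceps array. Tnnt1, the slow tropomyosin-binding troponin, was missing on 131 soleus arrays, skeletal actin Acta1 on 129, Myl2 on 128, Tnni2 on 120, Myh2 on 111 and Myl3 on 97. In quadriceps Tnni2, Tnnt3 and Myom2, an M-band protein, were each missing on 125 of 151 arrays, Myl11 and Tpm1 on 124, Acta1 and Myl1 on 123, Myh2 on 118, Myh4 on 115 and Myh1 on 113. The plot of missing values by gene shows these blocks. Myh7 and Tpm3 had a value on every array, and 22 genes were complete in all muscle arrays. What removed the values was not tested.

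**Figure D1:**
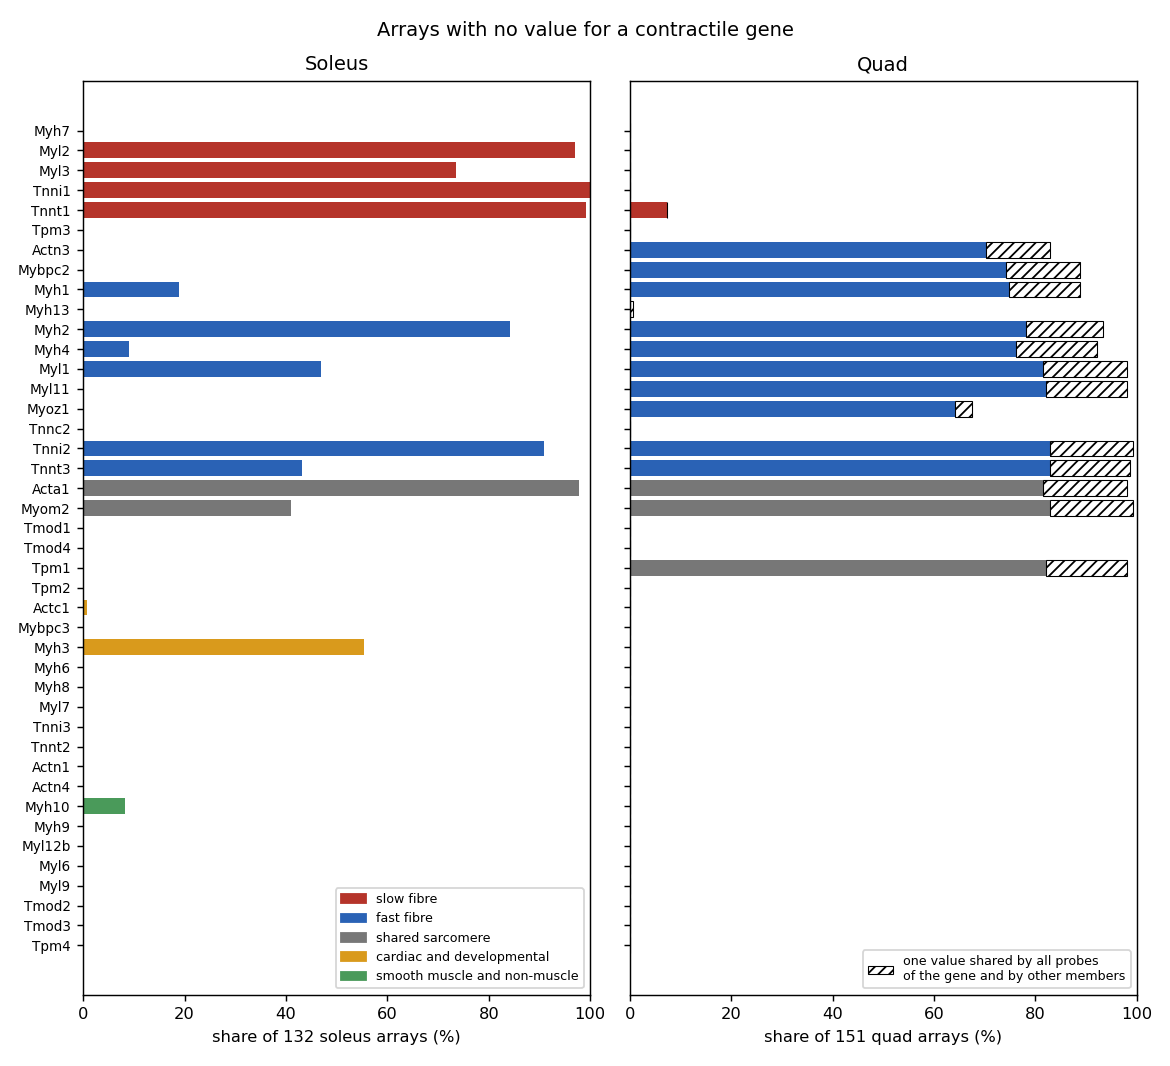
Percent of arrays without a value for each contractile gene, in soleus (132 arrays) and quadriceps (151 arrays), with genes ordered by role; hatching marks arrays on which the gene holds a value shared with other contractile genes. Missing values reach 132 of 132 soleus arrays for Tnni1 and 125 of 151 quadriceps arrays for Tnni2, Tnnt3 and Myom2.

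Missing values did not follow one compound. Over all 42 genes the share in soleus ran from 18.3% with rosiglitazone to 21.8% with vehicle, and in quadriceps from 22.1% with fenofibrate to 29.6% with Wy-14,643, with vehicle at 23.2%. The quadriceps shares also depend on 25 arrays of day 2 without any missing value, none of them with Wy-14,643. Myh1 was missing on 12 of 35 soleus vehicle arrays and on 1 to 4 arrays of each compound. Tests between groups therefore used a gene only where 80% of a muscle's arrays held a value, which left 31 genes in soleus and 29 in quadriceps. In soleus Tnni1, Tnnt1, Myl2, Myl3, Acta1, Tnni2, Myh2, Myl1, Tnnt3, Myom2 and Myh3 were not tested. In quadriceps Myh1, Myh2, Myh4, Myl1, Myl11, Tnni2, Tnnt3, Actn3, Mybpc2, Myoz1, Acta1, Myom2 and Tpm1 were not tested. Against single vehicle rats, most of the slow isoforms could thus be compared only in quadriceps and most of the tested fast isoforms only in soleus.

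Arrays without a missing value showed a second pattern. Of 79 such arrays, 25 were quadriceps arrays of day 2 and 54 were EDL, and on all 25 of the first and 21 of the second, at least 4 contractile probes held the same value within 0.0002 on the log10 scale. The 25 held all 14 vehicle arrays of day 2 but none of the 4 with Wy-14,643. On that day differences from vehicle in quadriceps thus partly set arrays with and without missing values against each other. The shared value stood on a median of 15 (at most 16) of the 65 probes in quadriceps and on up to 13 in EDL. On the 14 quadriceps vehicle arrays of day 2, Acta1, Myh4, Myl1, Myl11, Myom2, Tnni2, Tnnt3 and Tpm1 all took the one value, with a lowest of -0.63, a median of -0.24 and a highest of 0.11. These are the fast and common genes that lacked values on the other days, and a shared value cannot be read as a measurement of any one of them. In quadriceps 1 of the 2 Myh7 probes also held a shared value on 18 of the 25 arrays, and at least 1 of the 5 Tpm2 probes on all 25. In EDL the shared value stood on 20 of 54 arrays for Myom2 and on 18 for Tpm1 and Tnni2. It stood on 14 for Myl1, on 5 for Acta1, on 19 for at least 1 Tpm2 probe and on 7 for 1 Myh7 probe. The averages of Myh7 and Tpm2 in the main results include these values.

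Some genes had values on few soleus vehicle arrays, and whether those arrays stand for the others was not tested. Myl1, the fast essential light chain, had 14 values from -2.24 to 0.61 with a median of -0.47. Tnnt3, the fast tropomyosin-binding troponin, had 18 values from -1.48 to 0.44 with a median of -0.56, and Myh2, the heavy chain of fast oxidative fibres, 6 values from -1.52 to 0.04 with a median of -0.19. The medians of the values present lay below the pool in each of the 3. The slow light chain Myl3 had 9 values from -1.09 to 0.11 with a median of -0.14. The embryonic heavy chain Myh3 had 11 values from -1.15 to 0.43 with a median of -0.37.

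Among soleus vehicle rats the fast fibre genes spread far more than the slow ones. Myh4, the heavy chain of the fastest limb fibres, ran over 29 arrays from -5.10 through a median of -1.07 to 1.68, with an SD of 2.45 log2 units. SDs here are taken within days. Actn3, the alpha-actinin of fast Z discs, ran over 35 arrays from -4.22 through -0.33 to 1.79 (SD 1.56), and Mybpc2, fast myosin-binding protein C, from -3.46 through 0.06 to 2.15 (SD 1.48). These SDs were 7.04, 4.48 and 4.25 times the median SD of all features, 0.35. Myh1 had an SD of 1.34 over 23 arrays.

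The slow fibre genes with full values were the steady ones. Myh7 ran from -0.70 through -0.01 to 0.32 (SD 0.21, n = 35) and Tpm3, slow tropomyosin, from -0.18 through 0.01 to 0.33 (SD 0.14). By class the median SD in soleus was 0.6 for the 7 of 12 fast fibre genes with enough values, 0.18 for 2 of 6 slow ones, 0.34 for genes of both types, 0.36 for cardiac and developmental genes and 0.28 for smooth and non-muscle genes. Not all fast genes spread like Myh4: Tnnc2, the fast calcium-binding troponin, had an SD of 0.60 and Myl11, the fast regulatory light chain, 0.57. Between these lay Actc1, cardiac actin, at 0.84 and Tpm1, alpha-tropomyosin, at 0.64, and Tmod3 followed at 0.55, or 0.19 without the arrays in doubt. The smallest SDs were those of Myl6 (0.11), Tpm3, Mybpc3 and the non-muscle heavy chain Myh9 (0.15 each for the last pair). Over the 30 genes with enough values the median SD was 0.37, with 17 above the median of all features and 4 above their 90th percentile, 0.66. Without the 3 soleus vehicle arrays in doubt the medians were 0.21 for these genes and 0.20 for all features.

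**Figure D2:**
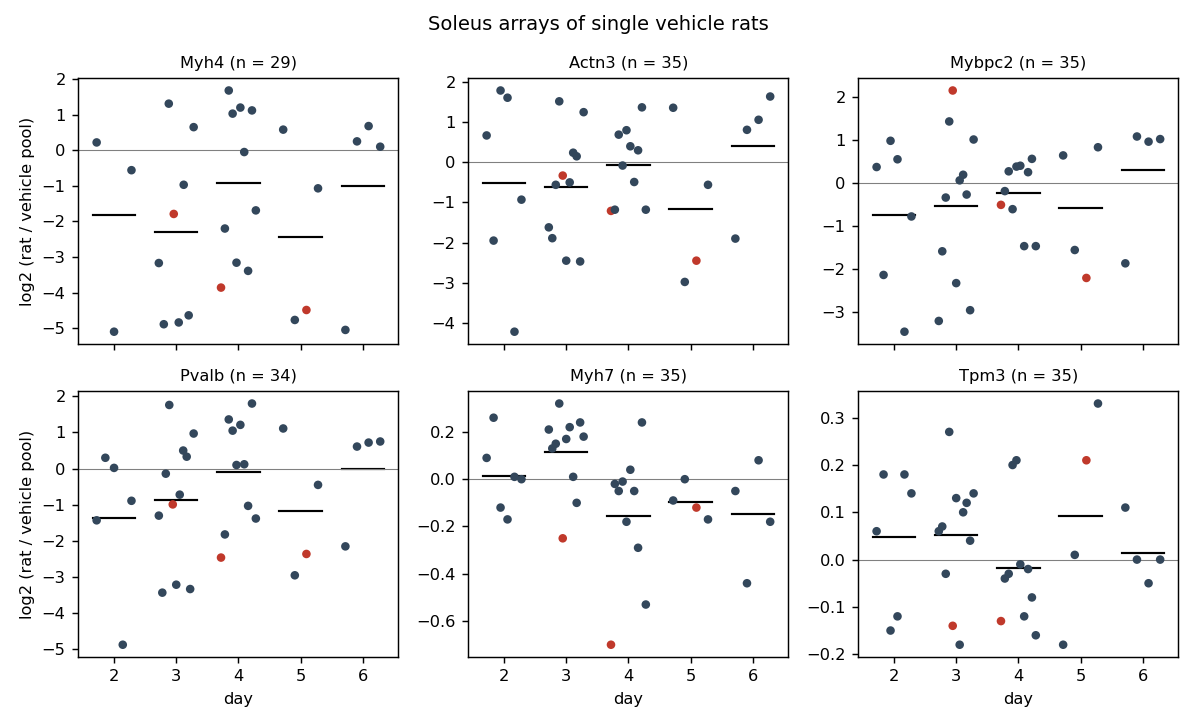
Log2 ratio to the vehicle pool of each soleus vehicle rat by day (2 to 6), for Myh4, Actn3, Mybpc2, the fast fibre gene Pvalb, Myh7 and Tpm3; each point is 1 rat, lines are day means and red points are the 3 arrays in doubt. The fast fibre genes reach below -3, Myh4 down to -5.10, while Myh7 stays between -0.70 and 0.32.

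The spread lay within days as well as between them. The median of Actn3 over soleus vehicle rats was -0.13, -0.50, 0.11, -1.50 and 0.94 on days 2 to 6 (6, 11, 10, 4 and 4 rats). That of Mybpc2 was -0.20, -0.27, 0.03, -0.46 and 0.99, also lowest on day 5 and highest on day 6. Myh7 had medians of 0.01, 0.17, -0.05, -0.10 and -0.12. The mean of log2 ratios and the log2 of the mean linear ratio differed for these genes: for Myh4 the vehicle mean was -1.62 in log2 units, while the log2 of the mean linear ratio was -0.25. For Actn3 the same pair was -0.38 and 0.26, and for Mybpc2 -0.39 and 0.16.

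The 3 widely spread fast genes varied together across these rats. Pvalb, the fast fibre calcium buffer parvalbumin, and Mylk2, skeletal myosin light chain kinase, were averaged into a fast fibre score that holds none of the 42 genes, and all values were taken as deviations from the day's mean. Neither was scaled, and with SDs of 1.72 for Pvalb and 0.34 for Mylk2 the score follows mainly Pvalb. Where Pvalb had no value, on 1 array, Mylk2 alone made the score. Only contractile genes were set against it, so the share of all features that would pass is not known. Over 29 vehicle rats Myh4 correlated with it at Pearson's r = 0.92 and Spearman's rho = 0.95 (permutation p = 1e-05 for each, the smallest that the permutations can give; adjusted p = 0.00015 for r and 0.0001 for rho over 30 genes), and at r = 0.91 without the 2 rats farthest from the median score. Actn3 gave r = 0.91 and rho = 0.90 over 35 rats (permutation p = 1e-05, adjusted p = 0.00015 and 0.0001; r = 0.89 without 2 rats). Mybpc2 gave r = 0.71 and rho = 0.74 (permutation p = 2e-05 and 1e-05, adjusted p = 0.0002 and 0.0001; r = 0.66 without 2 rats). The other 27 genes did not pass: Tpm1 came next with r = 0.42 and rho = 0.43 (permutation test, adjusted p = 0.181 and 0.114, n = 35), Tnnc2 gave r = 0.22 and rho = 0.25 (adjusted p = 0.609 and 0.431), and Myh7 r = 0.24 and rho = 0.18 (permutation p = 0.171 and 0.305, adjusted p = 0.571 for rho).

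The promoters of the 3 genes that moved together are shown because muscle genes are often bound at E-boxes by the MyoD family and at MCAT elements by TEAD factors. They are the 250 bases before the annotated start, from RefSeq on build GRCr8, 5′ to 3′ on the gene's strand. Capitals mark each E-box, CANNTG, and each MCAT element, CATTCC or its reverse complement GGAATG. The marked sites do not overlap one another.
Myh4 promoter, chr10:52421898-52422147, plus strand: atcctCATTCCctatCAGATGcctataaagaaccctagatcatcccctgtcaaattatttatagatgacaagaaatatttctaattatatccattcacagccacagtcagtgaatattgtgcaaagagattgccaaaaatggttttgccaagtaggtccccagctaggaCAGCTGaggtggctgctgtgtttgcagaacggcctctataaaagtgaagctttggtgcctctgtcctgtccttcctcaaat
Actn3 promoter, chr1:211604402-211604651, minus strand: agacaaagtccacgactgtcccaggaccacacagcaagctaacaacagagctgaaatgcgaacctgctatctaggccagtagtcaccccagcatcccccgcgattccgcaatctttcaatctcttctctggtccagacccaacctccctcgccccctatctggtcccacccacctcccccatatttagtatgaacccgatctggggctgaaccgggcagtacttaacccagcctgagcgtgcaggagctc
Mybpc2 promoter, chr1:104154102-104154351, minus strand: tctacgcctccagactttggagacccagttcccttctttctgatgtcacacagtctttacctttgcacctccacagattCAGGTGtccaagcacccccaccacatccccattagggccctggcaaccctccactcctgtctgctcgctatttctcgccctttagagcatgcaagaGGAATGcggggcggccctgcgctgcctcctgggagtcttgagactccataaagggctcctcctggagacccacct
Myh4 holds 2 E-boxes and 1 MCAT element, Mybpc2 holds 1 of each, and Actn3 holds neither in this window. An E-box stands in 65.5% of 33469 rat promoters of this length and in 71.4% of the 42 promoters found for 37 of the contractile genes. An MCAT element stands in 12.1% and 21.4%. These matches are letters in a window and were not tied to the measurements.

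In quadriceps slow and cardiac genes spread most among the genes with enough values. Among 63 vehicle rats Tnni1 ran from -3.13 through -0.26 to 1.49 (SD 1.02) and Myl2, the slow regulatory light chain, from -2.54 through -0.41 to 1.59 (SD 0.92). Tnnt1 had an SD of 0.93, Myl3 of 0.51 and Myh7 of 0.43, with Myh7 from -0.81 through -0.15 to 1.74. The median SD was 0.72 for the 6 slow fibre genes, 0.94 for the 8 cardiac and developmental genes, 0.24 for 2 of 12 fast fibre genes and for 3 of 6 genes of both types, and 0.17 for smooth and non-muscle genes. The steadiest were the non-muscle light chain Myl6 (SD 0.09) and the capping proteins and actinins Tmod1 and Actn4 (0.10 each). Over 29 genes the median was 0.29 against 0.19 for all features, with 21 above that value and 14 above the 90th percentile, 0.35.

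Of the slow fibre genes of quadriceps, Myl2, Myl3, Myh7 and Tnni1 followed a score of other genes across rats, and the values of Tnnt1 and Tpm3 are not given here. A slow fibre score was formed from Atp2a2, Casq2, Mb and Csrp3, which encode the slow calcium pump, cardiac calsequestrin, myoglobin and muscle LIM protein. Over 63 vehicle rats Myl2 correlated with it at r = 0.92 and rho = 0.93, Myl3 at 0.86 and 0.87, and Myh7 at 0.81 and 0.80 (permutation p = 1e-05 each, the smallest possible; adjusted p = 4.83e-05 for r and 3.22e-05 for rho over 29 genes). Without the 2 rats farthest from the median score r was 0.91, 0.84 and 0.79. Myl7, the atrial light chain, gave r = 0.86 and rho = 0.92 (0.90 without 2), and the non-muscle genes Myl12b and Myh10 gave r = 0.86 and 0.75 with rho = 0.83 and 0.81 (0.83 and 0.90 without 2), with the same permutation and adjusted p. Tnni1 gave r = 0.42 and rho = 0.69 (permutation p = 0.00167 and 1e-05, adjusted p = 0.00404 and 3.22e-05), and r = 0.86 without 2 rats.

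Of the 29 genes, 18 passed, but for 5 heart genes other than Myl7 the relation weakened without the 2 rats farthest from the median score. Only contractile genes were set against the score. The share of all features that would pass is not known, and the count does not single out these genes. There r went from 0.56 to 0.27 for Myh6, from 0.53 to 0.20 for Tnni3, from 0.49 to 0.06 for Tnnt2, from 0.46 to -0.01 for Mybpc3 and from 0.37 to 0.17 for Actc1. The same was seen for Tpm4 (0.37 to 0.14) and Tmod3 (0.40 to 0.02). Tnnc2 ran against the score at r = -0.58 and rho = -0.30 (permutation p = 3e-05 and 0.0258, adjusted p = 0.000124 and 0.0468, n = 63), with r = -0.41 without 2 rats.

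The cardiac genes of quadriceps split by day. Tnni3, cardiac troponin I, had vehicle medians of -0.02, -0.15 and 0.02 on days 2, 3 and 5. On day 4 it ran from -5.97 through -5.35 to 1.08, with 14 of 15 vehicle rats below -2, and on day 6 from -6.19 through -5.96 to 1.67, with 10 of 11 below -2. All 18 treated rats of day 4 (-5.91 to -4.17) and all 16 of day 6 (-6.20 to -4.03) were as low. Treated and vehicle rats thus overlapped on both days, and 1 vehicle rat of each day, 1036 and 1076, stood above the pool.

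Of the other heart genes some were as low on both days. Tnnt2, cardiac troponin T, ran over vehicle rats from -4.86 through -4.32 to 1.15 on day 4 and from -5.24 through -5.01 to 0.76 on day 6. The median of Myh6, the alpha cardiac heavy chain, was -2.29 and -2.02 on these days with highest values of 2.75 and 2.49. Myl7 was low on day 4 alone, with medians of -2.55 and -0.31. Nppb, a cardiac natriuretic peptide named after its values were seen and not one of the 42, had medians of -4.23 and -3.55 and stood at 3.40 in rat 1036 and 3.19 in rat 1076. Without these rats the SD of Tnni3 went from 1.30 to 0.39, that of Tnnt2 from 1.05 to 0.34, that of Myh6 from 0.93 to 0.41 and that of Mybpc3 from 0.49 to 0.17, while Tnni1 went from 1.02 to 0.91. The pool of the day holds several vehicle rats, and whether the 2 rats set its cardiac level was not tested.

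**Figure D3:**
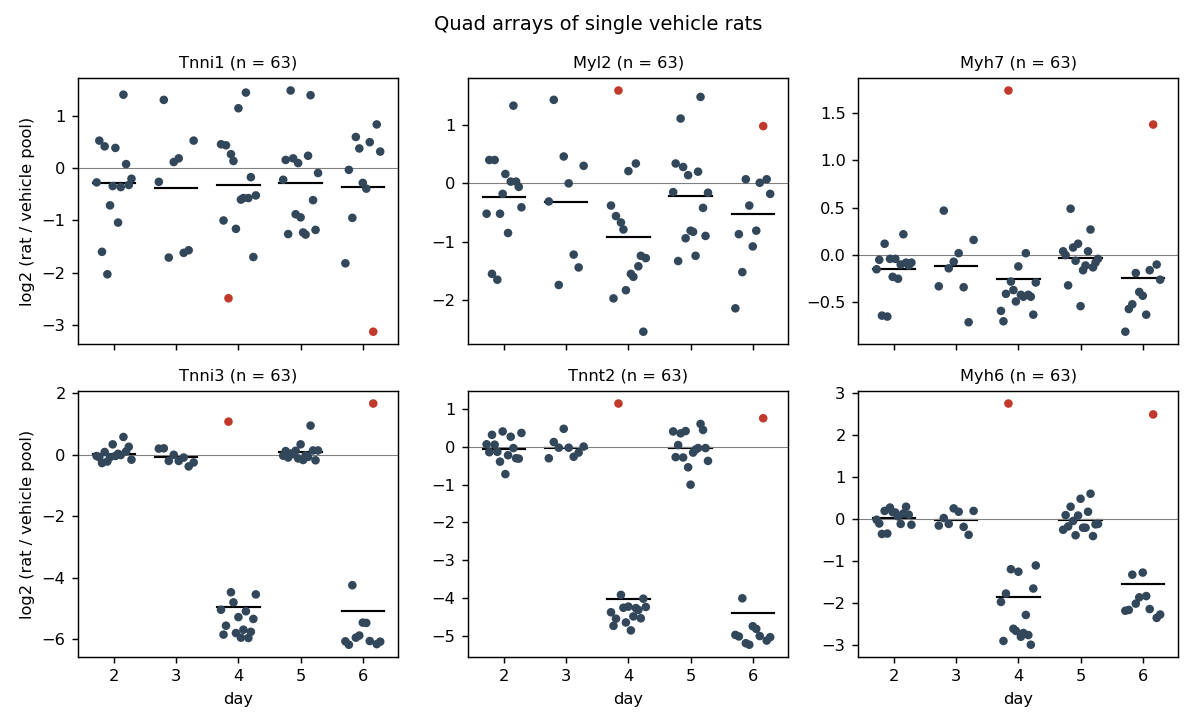
Log2 ratio to the vehicle pool of each quadriceps vehicle rat by day (2 to 6), for Tnni1, Myl2, Myh7, Tnni3, Tnnt2 and Myh6; each point is 1 rat, lines are day means and red points are rats 1036 and 1076. Tnni3 lies near -5 on days 4 and 6 in all vehicle rats but those 2, and near 0 on days 2, 3 and 5.

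Vehicle rats were also compared with their own pools, a comparison added after the data were seen, whose test leaves out the spread of the pooled control. In soleus 3 of 31 genes were called and all were lower than the pool, beside 0.947% of all features called: Myh1 by -1.25 ± 0.31 (SE, limma, adjusted p = 0.0286), Myh4 by -1.70 ± 0.44 (adjusted p = 0.0356) and Myl9, a smooth muscle light chain, by -0.13 ± 0.04 (adjusted p = 0.0494). Without vehicle rat 1061 none of the 3 was called. Myh1 and Myh4 lacked a value on part of the soleus vehicle arrays. In quadriceps 9 of 29 were lower, beside 5.95% of all features. They were the cardiac genes Tnni3 (-2.0), Tnnt2 (-1.70), Actc1 (-0.91), Mybpc3 (-0.88), Myh6 (-0.69) and Myl7 (-0.60) and the slow fibre genes Tnnt1 (-0.59, adjusted p = 0.00361), Myl2 (-0.44, adjusted p = 0.00854) and Myh7 (-0.16, adjusted p = 0.0255). Beside them 3 of 4 slow fibre partners and 8 of 14 hepatocyte markers were lower than the pool as well, and their part in the result was not tested. The log2 of the mean linear ratio was nearer to 0 than the mean of the log2 values: -0.51 against -2.05 for Tnni3, -0.58 against -1.75 for Tnnt2, -0.14 against -0.67 for Myl7 and -0.16 against -0.46 for Myl2. For Tnni1, which was not called, these values were -0.01 and -0.32.

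In soleus no compound moved a tested slow or fast fibre gene past the threshold, an adjusted p of 0.05 over all features with a value. Of the slow fibre genes only Myh7 and Tpm3 were tested. The 5 compounds share the vehicle arrays. With fenofibrate 0 of 31 genes were called (limma; 6 at an unadjusted p under 0.05, all lower) beside 3.33% of all features. With bezafibrate 0 were called (4 unadjusted, all lower) beside 0.904%, with Wy-14,643 0 (4 unadjusted, 2 in each direction) beside 0.191%, and with rosiglitazone 0 (6 unadjusted, 2 higher and 4 lower) beside 2.63%. Retinoic acid gave 1 called gene beside 2.85%, and the mean of the 3 PPAR alpha agonists 1 beside 1.96%. Without vehicle rat 1022 the counts were 1 for fenofibrate and 2 for rosiglitazone. The differences between compound and vehicle were not called different between days for any of the 31 genes (limma, 3 at an unadjusted p under 0.05), as for 0% of all features.

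The fast fibre genes had the largest differences and the widest intervals. Actn3 had a vehicle median of -0.33 with 19 of 35 rats below the pool. With fenofibrate it ran from -4.27 through -1.57 to 1.37 with 17 of 19 rats below the pool, with bezafibrate from -3.31 through -1.78 to 1.96 (16 of 20) and with Wy-14,643 from -3.74 through -1.35 to 1.31 (14 of 18). With rosiglitazone it ran from -4.23 through -1.57 to 1.29 (15 of 20) and with retinoic acid from -3.10 through -1.04 to 1.61 (13 of 20). All groups overlapped the vehicle rats over most of their range. The difference from vehicle was -1.08 ± 0.35 (SE, 95% interval -1.78 to -0.38) for the PPAR alpha agonists (limma, adjusted p = 0.0845), -1.14 ± 0.45 for rosiglitazone (adjusted p = 0.193) and -0.50 ± 0.45 for retinoic acid (adjusted p = 0.583). By day it was -1.93, -1.01, -0.89, -0.23 and -1.94 with fenofibrate.

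Mybpc2 and Myh4 gave PPAR alpha differences of the same sign, that of Myh4 with less precision. Mybpc2 had medians of 0.06 with vehicle, -0.63 with fenofibrate, -0.79 with bezafibrate, -1.33 with Wy-14,643, -0.87 with rosiglitazone and -0.71 with retinoic acid, and the PPAR alpha difference was -0.68 ± 0.33 (limma, adjusted p = 0.252). Myh4 had medians of -1.07, -2.26, -2.24, -1.58, -3.90 and -1.05 in the same order, and its PPAR alpha difference was -0.49 ± 0.54 (95% interval -1.56 to 0.57, adjusted p = 0.599), that with rosiglitazone -1.31 ± 0.68 (adjusted p = 0.381). Pvalb, of the score, differed by -0.75 ± 0.36 with the PPAR alpha agonists (adjusted p = 0.246). With the fast fibre score of each array as a covariate, the PPAR alpha difference of Actn3 was -0.41 (95% interval -0.75 to -0.06, adjusted p = 0.224), that of Mybpc2 -0.15 and that of Myh4 0.34. The 8 fast fibre genes tested had interval half-widths from 0.11 to 1.41 with a median of 0.5 log2 units, against 0.07 to 0.13 for the 2 slow fibre genes tested.

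The 2 slow fibre genes tested in soleus, Myh7 and Tpm3, had narrower intervals. Myh7 had medians of -0.01 with vehicle, -0.02 with fenofibrate, 0.09 with bezafibrate, -0.01 with Wy-14,643, 0.08 with rosiglitazone (15 of 20 rats above the pool) and 0.00 with retinoic acid. Its difference from vehicle was 0.05 ± 0.05 with the PPAR alpha agonists (limma, adjusted p = 0.577) and 0.19 ± 0.06 with rosiglitazone (95% interval 0.06 to 0.31, adjusted p = 0.09). For Tpm3 the PPAR alpha difference was 0.01 ± 0.04.

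Both genes called in soleus changed little. Tpm2, beta-tropomyosin of both fibre types, ran from -0.32 through -0.00 to 0.84 with vehicle, from -0.48 through -0.18 to 0.13 with fenofibrate, from -0.43 through -0.14 to 0.08 with bezafibrate and from -0.37 through -0.14 to 0.21 with Wy-14,643. It fell with the PPAR alpha agonists by 0.15 ± 0.04 (limma, 95% interval -0.24 to -0.06, adjusted p = 0.0448), and its medians with rosiglitazone and retinoic acid were -0.20 and -0.13. The call was lost without vehicle rat 1061, one of the arrays in doubt, where the difference was -0.12 (adjusted p = 0.191). Tmod2, a tropomodulin best known from neurons, ran from -0.39 through 0.02 to 0.48 with vehicle and from -0.69 through -0.09 to 0.20 with retinoic acid (15 of 20 rats below the pool) and fell with it by 0.15 ± 0.04 (adjusted p = 0.035), a call that was also lost without rat 1061. Over the alternatives its adjusted p ran from 0.00235 to 0.281, and that of Tpm2 from 0.0275 to 0.38.

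In quadriceps 1 of 29 genes was called. Fenofibrate gave 0 (limma; 9 at an unadjusted p under 0.05, 1 higher and 8 lower) beside 5.69% of all features, bezafibrate 0 (3 unadjusted) beside 1.63%, Wy-14,643 0 (1 unadjusted) beside 0.0163%, retinoic acid 0 (2 unadjusted) beside 2.42%, and the PPAR alpha mean 0 (6 unadjusted, all lower) beside 0.841%. Rosiglitazone gave 1 beside 6.86%. Differences between days were called for 0 of 29 genes (limma, 2 at an unadjusted p under 0.05) beside 0.787% of all features.

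The called gene was Myl9. It ran from -0.32 through -0.02 to 0.65 with vehicle and from -0.40 through -0.18 to 0.33 with rosiglitazone, where 12 of 16 rats lay below the pool, and it fell by 0.16 ± 0.05 (limma, adjusted p = 0.0479). Tmod3, the widely expressed tropomodulin, ran from -0.02 through 0.18 to 0.44 with rosiglitazone, with 15 of 16 rats above the pool, and its difference was 0.17 ± 0.07 (adjusted p = 0.132). Without the arrays in doubt its adjusted p was 0.0164. Across the compounds the 6 slow fibre genes had differences from -0.52 to 0.07, with interval half-widths from 0.1 to 0.59. Myl2 had medians of -0.41 with vehicle, -1.07 with fenofibrate, -0.67 with bezafibrate, -0.54 with Wy-14,643, -0.90 with rosiglitazone and -0.89 with retinoic acid, and its PPAR alpha difference was -0.37 ± 0.17 (adjusted p = 0.305). With the slow fibre score as a covariate it was -0.14.

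With rosiglitazone Myl2 differed by -0.48 ± 0.26 (limma, adjusted p = 0.307), Myl3 by -0.34 ± 0.14 (adjusted p = 0.146), Myh7 by -0.24 ± 0.11 (adjusted p = 0.18), Tnni1 by -0.40 and Tnnt1 by -0.25. Over all 29 genes the median size of the difference was 0.126 with rosiglitazone against 0.056 over all features, 0.077 against 0.032 with the PPAR alpha mean and 0.077 against 0.040 with retinoic acid. In soleus the same medians were 0.089 against 0.070, 0.074 against 0.063 and 0.098 against 0.073. Day by day single values moved far: Tnni1 differed with retinoic acid by 1.74, -1.29, 0.41, -0.45 and -0.72 on days 2 to 6.

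Soleus and quadriceps were compared directly over the 24 genes tested in both. Of the rats, 111 gave both muscles, 28 of them on vehicle. None of the 3 differences was called for any gene: 0 of 24 for the PPAR alpha mean (limma; 6 at an unadjusted p under 0.05) beside 0.267% of all features, 0 for rosiglitazone (5 unadjusted) beside 0.0381% and 0 for retinoic acid (5 unadjusted) beside 0.0708%. The smallest adjusted p belonged to Tpm2 with the PPAR alpha agonists, whose effect in soleus minus that in quadriceps was -0.18 ± 0.06 (adjusted p = 0.12). For Myh7 with rosiglitazone the effect in soleus exceeded that in quadriceps by 0.43 ± 0.13 (adjusted p = 0.206). With the rat as a replicate block 0 of 24 were called for each of the 3, and with the block and without the arrays in doubt 1, Tpm2 with retinoic acid at -0.32 (adjusted p = 0.0175).

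Other genes of the pathway were taken from fixed lists. With the PPAR alpha mean in soleus, beside 1.96% of all features, 1 of 13 further sarcomere and Z-disc genes fell, desmin (Des, -0.22, adjusted p = 0.0328), as did 2 of 13 calcium handling genes, the kinase subunit Camk2b (-0.29, adjusted p = 0.0292) and junctophilin 2 (Jph2, -0.19, adjusted p = 0.0337), and 0 of 15 fibre type regulators changed (limma). With rosiglitazone in quadriceps, beside 6.86% of all features, 3 of 17 sarcomere genes fell: the actin-capping Capzb (-0.17, adjusted p = 0.00237), the filament regulator Lmod2 (-0.60, adjusted p = 0.0121) and the myosin methyltransferase Smyd1 (-0.25, adjusted p = 0.0155). Jph2, 1 of 12 calcium handling genes (-0.21, adjusted p = 0.00855), and the receptor Esrra, 1 of 15 regulators (-0.22, adjusted p = 0.00223), fell there as well. Of the markers of other cells, 4 of 8 adipocyte markers were higher with rosiglitazone in soleus (beside 2.63% of all features), 3 of 9 in quadriceps and 3 of 8 with the PPAR alpha mean in soleus, where 2 of 6 vascular smooth muscle markers (one of them Des) were lower. Their part in the values of Myl9 and Tpm2 was not tested.

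In EDL all 42 genes had a value on every array and were compared with the vehicle pool alone, and most called genes lay below it. These values include the shared ones, and with them set to missing, an alternative chosen after seeing the data, 38 genes could be tested and Tpm1, Tnni2, Myl1 and Myom2 could not. Fenofibrate gave 11 calls, 3 higher and 8 lower, beside 34.6% of all features (17.2% higher and 17.4% lower). Bezafibrate gave 20, 4 higher and 16 lower, beside 33.9% (16.2% and 17.7%), and Wy-14,643 gave 18, 4 higher and 14 lower, beside 47.1% (23.1% and 23.9%). Rosiglitazone at 10 mkd gave 11, 3 higher and 8 lower, beside 37.2% (17.5% and 19.7%), and at 100 mkd 18, 2 higher and 16 lower, beside 33.1% (15.6% and 17.5%). Retinoic acid gave 12, 2 higher and 10 lower, beside 40.4% (20.6% and 19.8%). With 33.1% to 47.1% of all features called, the test against a pool without its own spread is read here only for size and direction.

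The same 6 genes were lower in all 6 groups, which share the pools: Acta1, Actn1, Actn3, Myoz1, Tmod4 and Tpm2. With the shared values set to missing all 6 were still called lower in each group. In any single group 17.4% to 23.9% of all features were called lower. The share of all features lower in all 6 groups is not given here. Tpm2 ran from -0.69 through -0.28 to -0.09 with fenofibrate, from -0.46 through -0.31 to 0.00 with bezafibrate and from -0.52 through -0.33 to -0.13 with Wy-14,643, so that no rat of these groups stood above the pool. Its mean was -0.33 ± 0.04 (SE) with Wy-14,643 (limma, adjusted p = 7.25e-10) and -0.49 ± 0.06 with rosiglitazone at 100 mkd (adjusted p = 7.52e-08). Tmod4, the tropomodulin of skeletal muscle, had means from -0.40 to -0.23 and lay below the pool in all 54 rats, the highest value being -0.05. Acta1 ran from -1.59 through -0.44 to -0.14 with fenofibrate and had group means from -0.56 to -0.36, Myoz1, a calcineurin-binding protein of fast Z discs, from -0.73 to -0.47, and Actn3 from -0.82 to -0.42.

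**Figure D4:**
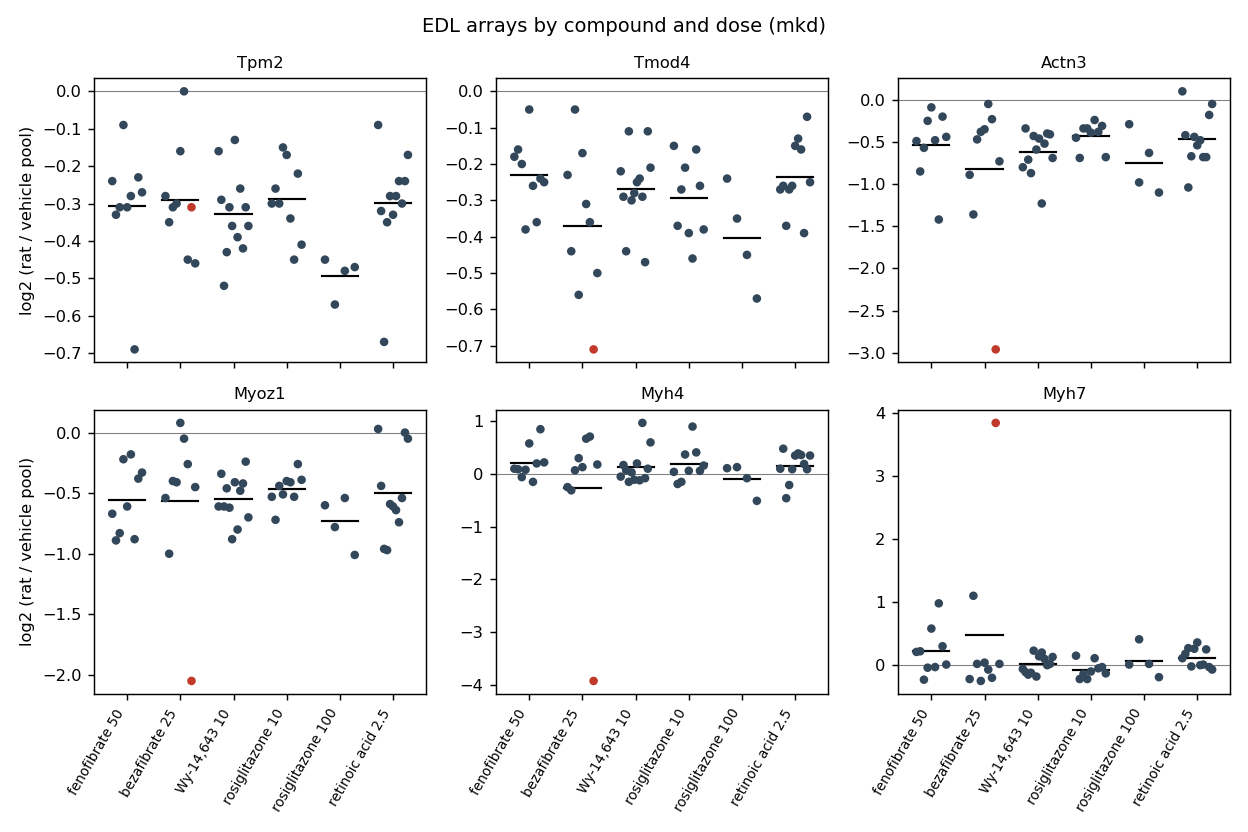
Log2 ratio to the vehicle pool of each EDL rat for Tpm2, Tmod4, Actn3, Myoz1, Myh4 and Myh7, by compound and dose in mkd; each point is 1 rat, lines are group means and red points are bezafibrate rat 1242. Tmod4 lies below 0 in all groups, at means from -0.40 to -0.23, while Myh4 and Myh7 lie on both sides.

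Others were lower in part of the groups. The fast genes Myl11 and Tnnt3 and the non-muscle Actn4 were lower in 5, with means from -0.65 to -0.21, from -0.67 to -0.24 and from -0.20 to -0.08. The end of -0.67 for Tnnt3 was the bezafibrate mean, which was -0.41 without rat 1242 (limma, adjusted p = 1.77e-05). Mybpc2 and Tmod2 were lower in 3 groups, Myl9 in 2, and Myh9, Myl3, Myl6 and Tnnc2 in 1. Tpm1 was called lower in 4, Myl1 and Tnni2 in 2 and Myom2 in 1, on values that include the shared one.

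Fewer contractile genes were called above the EDL pool than below it. Tmod1, the capping protein of striated muscle, was called higher in 4 groups, with means from 0.05 to 0.20 over all 6, and Tmod3 in 4 groups. Myh2 was called higher in 2, with bezafibrate at 0.41 ± 0.16 (limma, adjusted p = 0.0498) and with Wy-14,643 at 0.45 ± 0.14 (adjusted p = 0.00918). Myh4 had group means from -0.27 to 0.21 and Myh7 from -0.07 to 0.48, and neither was called in any group. Without rat 1242 the ranges were -0.09 to 0.22 for Myh4, which was still not called, and -0.07 to 0.22 for Myh7, which was called higher with fenofibrate (0.22; limma, adjusted p = 0.0444). Mybpc3 was called higher in 2 groups and Actc1, Myh1, Myh3, Myh8, Myh10 and Tnni3 in 1, among them Actc1 with bezafibrate at 1.04 ± 0.27 (adjusted p = 0.0029). Without rat 1242 the bezafibrate mean was 0.58 for Actc1 (limma, adjusted p = 0.0486), 0.40 for Myh2 (adjusted p = 0.0898) and -0.55 for Actn3 (adjusted p = 0.000131). In all, 12 genes were called in none, or 8 without rat 1242, and with all rats none was called higher in one group and lower in another. The share of all features called in none is not given here.

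Against the other compounds of the same days, 0 of 42 genes were called in each of the 6 groups (limma; at an unadjusted p under 0.05, 1 with fenofibrate, 11 with bezafibrate, 1 with Wy-14,643, 0 with rosiglitazone at 10 mkd, 1 at 100 mkd and 0 with retinoic acid). Of all features 0.0215%, 0%, 0.0108%, 0.656%, 1.56% and 0.129% were called in the same order. Rosiglitazone at 100 mkd minus 10 mkd on day 4 gave 0 of 42 (limma; 1 at an unadjusted p under 0.05, Tpm2 at -0.20 ± 0.09, adjusted p = 0.999) beside 0.0108% of all features. Hepatocyte markers were lower than the pool for 10, 12, 11, 11, 2 and 4 of 14 in the order fenofibrate, bezafibrate, Wy-14,643, rosiglitazone at 10 and at 100 mkd and retinoic acid, and their part in the result was not tested. Without rat 1242 the counts of called contractile genes were 20, 13, 23, 18, 22 and 15 in that order, and Myl3 was lower in 5 groups instead of 1, Myl2 in 3, Tnnt2 in 2 and Myl7 in 1 instead of none. The share of all features called without this rat is not given here.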

How the data were processed

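Two-colour arrays of single rats (Cy5) against a vehicle pool of the same tissue and day (Cy3), per the labels, were used as the authors deposited them, as a table of log10 ratios limited at 2 in size, or 100-fold. That these are log10 ratios of rat over pool was inferred from the values and from Acot1; background correction and normalization are not given in the sources used here, and no dyes were swapped. Values were multiplied by 3.32 to give log2. Gene names came from the platform annotation: of 23653 probes, 15260 named 1 gene, 17 several and 8376 none. Probes of a gene were averaged, giving 18603 features with the unnamed probes. limma 3.58.1 (R 4.3.3) fitted a mean per compound and day in each tissue. Effects are compound minus vehicle within days, averaged over days, or the group mean against 0 in EDL. Features with values on 80% of arrays entered, and p-values were adjusted by Benjamini-Hochberg over all of them (threshold 0.05). The 42 genes and all other gene lists were chosen with earlier results of these data known. Named in the text are the genes called (at most 12 a comparison), the main fibre type isoforms, the largest and smallest spreads, and at most 3 genes of each further list. Myl11, an alias missed at first, was added to the fast fibre list. The fits were tested on simulated data. Of 111 rats with both muscles, 89 had a correlation between their soleus and quadriceps deviations above 0.1 (median 0.26, against -0.07 between different rats of the same compound and day). Deviations were taken from the mean of the compound and day. This makes values between different rats of a group lean negative, so -0.07 is not an independent baseline.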

Additional observations from a re-analysis of the deposited data

Results flagged for a closer look

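In the EDL groups of 4 to 10 rats, 15 core genes were checked for a rat far from the others of its group, measured by its gap to the nearest rat as a share of the group's range. Of 60 combinations of gene and group, 15 stood out, and chance gives about 1 in 20. Of the 15, 9 belong to bezafibrate rat 1242 of day 6. Its slow fibre genes stood high: Myh7 at 3.84 log2 units above the pool, where the next rat was at 1.10, and Myl2 at 2.74 (next 0.88). Its fast fibre genes stood low: Myh4 at -3.93 (next -0.31), Tnnt3 at -3.04 (next -0.74), Actn3 at -2.96 (next -1.36), Tnni2 at -2.36 (next -0.48), Mybpc2 at -2.05 (next -0.44), Myl1 at -1.75 (next -0.69) and Tnnc2 at -1.20 (next -0.26). In the same rat Acta1, which both fibre types use, was at -0.39.

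The other flagged values were smaller and lay in different rats. Acta1 stood at -1.20 in bezafibrate rat 1234 (next -0.51) and at -0.69 in rosiglitazone rat 1352 at 10 mkd (next -0.43). Tnnt3 stood at -1.27 in fenofibrate rat 1129 (next -0.36) and, as the highest of its group, at -0.34 in rosiglitazone rat 1373 at 100 mkd (next -0.53). Tnnt1 stood at 0.17 in rosiglitazone rat 1345 at 10 mkd (next -0.15), and Myh1 at -0.21 in rosiglitazone rat 1376 at 100 mkd (next 0.06).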

How the results depend on the processing

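Of 393 recomputed results, 318 stayed within 1.5 times the reported count or within the spread, and 75 moved. The counts below are given without the share of all features called under each alternative, so they do not single out the contractile genes. Counts of called contractile genes in soleus moved as follows. With array quality weights they were 3 for fenofibrate, 1 for bezafibrate, 3 for rosiglitazone and 0 for retinoic acid, and rosiglitazone had 1 after subtracting array medians or scaling to one spread. Leaving out day 2, 3, 4, 5 or 6 gave 0 or 1 for fenofibrate, rosiglitazone and the PPAR alpha mean, and 0 to 4 for retinoic acid. Against the pool in place of the vehicle rats the counts were 6 for fenofibrate, 6 for bezafibrate, 3 for Wy-14,643, 6 for rosiglitazone, 4 for retinoic acid and 13 for the PPAR alpha mean, which holds the vehicle rats' own offset. Without the arrays in doubt, or without vehicle rat 1061, the PPAR alpha mean had 0, and without rat 1061 retinoic acid had 0. Without rat 1022 fenofibrate had 1 and rosiglitazone 2. Vehicle against pool gave 0 with quality weights, with complete values only, without day 3, 4 or 5 and without rat 1061, and 1 without the arrays in doubt. The cause of these moves was not tested.

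In quadriceps, counts against the pool were 13 for fenofibrate, 9 for bezafibrate, 6 for Wy-14,643, 15 for rosiglitazone, 7 for retinoic acid and 16 for the PPAR alpha mean. Rosiglitazone had 6 with quality weights, 2 without the arrays in doubt, 3 without these and rats 1036 and 1076, and 0 without day 2, 4 or 5. Fenofibrate had 3 without day 5, retinoic acid 1 with one spread or quality weights, and the PPAR alpha mean 1 without the arrays in doubt or day 2. The test between days gave 4 with quality weights and 1 without rats 1036 and 1076 and the arrays in doubt.

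In EDL all groups had 0 against the other compounds. Fenofibrate had 18 with quality weights, 7 without day 4 and 20 without rat 1242; bezafibrate 11 without day 6 and 13 without rat 1242; rosiglitazone at 10 mkd 17 with one spread, 19 with quality weights, 7 without day 5 and 18 without rat 1242; retinoic acid 7 without day 5. The alternatives without named rats were chosen after seeing the data. With the rat as a replicate block in the comparison of soleus with quadriceps, 0 of 24 genes were called for the PPAR alpha mean, 0 for rosiglitazone and 0 for retinoic acid (consensus correlation 0.0739), and with the replicate block and without the arrays in doubt 1 for retinoic acid, Tpm2 at -0.32 (limma, adjusted p = 0.0175). The block alone changed no call. The median spread of the contractile genes in soleus was 0.24 as a median absolute deviation and 0.21 without the arrays in doubt.

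Several limits hold for all results. Missing values leave most slow isoforms in soleus and most fast isoforms in quadriceps without a test. In soleus and quadriceps, probes of one gene took both directions in 61 of 196 comparisons of genes with several probes. In EDL they did in 50 of 98. Of the 25 calls of such genes in EDL, 4 had every probe called, and in 8 the probes took both directions. Among the 7 such calls in soleus and quadriceps these numbers were 3 and 1. Signal over background was not analysed here.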
